A study of Homo sapiens with 18 samples.

Results

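The comparison described here set flagellin of Salmonella Typhimurium SL1344 (ST) against flagellin of Escherichia coli Nissle (EcN), 60 min after it was added to human cells. Its members were the 3 arrays titled ST and the 3 titled EcN at the first of the 2 time points, 6 of the 18 arrays in the series. The cells were HEK293, a human embryonic kidney line, made to overexpress murine TLR5, and all groups, mock included, carried this transgene. The sources used here state neither the promoter behind it nor whether the line is a single clone. The flagellins were isolated proteins, given to cells in flasks at a concentration set to a multiplicity of infection of 10 for both. The 3 arrays of a group are lettered A, B and C and called biological replicates. The mock arrays at 60 min entered no test and are used below only as a reference range. The same flagellin groups at 120 min, 6 other arrays, served as a second look at the same contrast.

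The labels of the ST arrays conflict. Their description fields call them mock, against ST in the title, source and treatment fields, and the titles were followed. The cells were grown to passage 7 in 3 media that differed in the isotopes of their amino acids, as used for protein quantification. The sources used here do not say which array came from which medium, so medium and flagellin cannot be told apart.

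Flagellin is the protein subunit of the bacterial flagellar filament. TLR5, a receptor at the cell surface, binds a conserved part of it and signals through the adaptor MyD88, the IRAK kinases and TRAF6 to the transcription factor NF-kB and to MAP kinases. NF-kB induces its own inhibitors, such as NFKBIA and TNFAIP3, and chemokines such as CXCL8. MAP kinases induce immediate-early genes such as EGR1 and FOS. Interferon-stimulated genes form a separate programme, driven by IRF and STAT factors.

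Each value is a deposited level on a log2 scale, so a difference of 1 is a doubling, and every difference below is ST minus EcN. Of 53617 rows, 23871 had exactly 1 gene symbol, and 16111 genes were tested after a filter on low rows. The medians of the 6 arrays lay between 2.27 and 2.29 over all rows, and Pearson correlations between them lay between 0.988 and 0.993. Of 10 markers of embryonic kidney and HEK293 cells, 8 were among the genes tested, and their summed level was 11.30 to 11.39 with EcN and 11.24 to 11.37 with ST. Of 10 leukocyte markers only 4 were tested, with summed levels of 9.38 to 9.49 and 9.29 to 9.46. That sum came mostly from CD68. The other members tested, CD14, FCER1G and CD79A, were far lower, with means of 2.65, 2.84 and 3.54 on the mock arrays at 60 min. The sum is therefore close to a reading of CD68 alone and does not show leukocytes in the cultures. Some arrays stood apart within their groups. Both C arrays had high NF-kB target genes, and the EcN A array had low interferon-stimulated genes. The main results they touch are given with and without them.

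No gene differed between the flagellins at 60 min once the tests were adjusted over all genes. With limma and Benjamini-Hochberg adjustment, 0 of 16111 genes (0%) had an adjusted p under 0.05, and the smallest adjusted p was 0.2466. Without adjustment, a p under 0.05 was reached by 795 genes (4.93%) higher with ST and 1051 (6.52%) lower. In 1311 genes (8.14%) all 3 ST arrays lay above all 3 EcN arrays, and in 1593 (9.89%) all lay below. Differences were small in most genes. At least 1.5-fold, 87 genes were higher and 151 lower, and at least 2-fold, 11 were higher and 4 lower. The median standard error was 0.123 and the median half-width of the 95% confidence interval was 0.285, so a difference of that size or less in a typical gene was not resolved with 3 arrays a group. That interval is for a single gene before adjustment. After adjustment larger differences were not resolved either, since the genes that differed at least 2-fold were not called. The p-values measure the spread between these arrays.

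The 12 genes higher with ST and the 12 lower that had the smallest unadjusted p are named next. None passed after adjustment in limma, with adjusted p from 0.2466 to 0.2739, and the separation of their groups follows from how they were chosen. On the higher side the folds ran from 1.39 to 2.15.

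CRYBB3, which encodes a beta crystallin best known from the eye lens, had the smallest p of all genes. Its levels were 3.23, 3.27 and 3.26 with EcN (A, B, C) and 3.98, 3.98 and 4.04 with ST, a difference of 0.74 ± 0.09 (SE, 3 arrays a group). The mock arrays spanned 3.47 to 4.06, so ST lay within the mock range and EcN below it. RRS1, a factor that assembles the large ribosomal subunit, stood at 7.13, 7.18 and 7.49 with EcN and 8.08, 7.89 and 8.13 with ST. Its difference was 0.77 ± 0.13, and mock, at 7.50 to 7.71, lay between the flagellins. At 120 min RRS1 had a difference of -0.20 ± 0.11, and the change between the times did not pass in limma (adjusted p = 0.5861).

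GADD45G, a stress sensor that binds kinases of the p38 and JNK pathways, stood at 5.76, 5.46 and 5.67 with EcN and 6.44, 6.12 and 6.38 with ST. All 6 arrays lay above mock, at 5.18 to 5.43. BRPF1, a scaffold of histone acetyltransferase complexes, stood at 7.14, 7.18 and 7.19 with EcN and 7.59, 7.68 and 7.66 with ST, all below mock at 7.76 to 8.04. ITPKC, a kinase of inositol phosphates, differed by 0.54 ± 0.10 and IFT70B, a part of the transport machinery of cilia, by 0.48 ± 0.09. RPS25, a protein of the small ribosomal subunit, differed by 0.50 ± 0.09, and PILRB, a receptor of the immunoglobulin superfamily, by 0.60 ± 0.11. The other 4 were the non-coding or pseudogene transcripts RNA5SP99, OR7E5P, LINC02249 and MIR539. RNA5SP99 is a copy of the 5S ribosomal RNA gene, and near-identical copies can share signal on the array.

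On the lower side the folds ran from 1.47 to 2.03. LYPD5, a protein of the LY6 and PLAUR domain family, stood at 3.99, 3.75 and 3.82 with EcN and 3.08, 2.89 and 2.92 with ST, a difference of -0.89 ± 0.11. Its groups overlapped at 120 min, where the difference was -0.02 ± 0.15. TMEM187, a membrane protein, stood at 5.83, 5.72 and 5.81 with EcN and 5.09, 5.02 and 5.15 with ST, a difference of -0.70 ± 0.09. PLPP2, a phosphatase of lipid phosphates, stood at 7.06, 6.93 and 6.89 with EcN and 6.36, 6.32 and 6.30 with ST, a difference of -0.64 ± 0.09.

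FRY, a large protein that works with NDR kinases, stood at 5.98, 5.81 and 5.77 with EcN and 5.25, 5.11 and 5.02 with ST. SYT17, of the synaptotagmin family, stood at 4.75, 4.70 and 4.56 with EcN and 3.91, 4.04 and 3.68 with ST. For TMEM187, PLPP2, FRY and SYT17 every EcN array lay above the mock range, while the ST arrays overlapped it. CYP1B1, a cytochrome P450 and a known target of the aryl hydrocarbon receptor, differed by -0.56 ± 0.09, with EcN above mock and ST below it. The remaining 6 were KEL, which carries the Kell blood group, LRRC37A3, LINC00304, the precursor MIR4525 and the 5S copies RNA5SP506 and RNA5SP440.

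**Figure D1:**
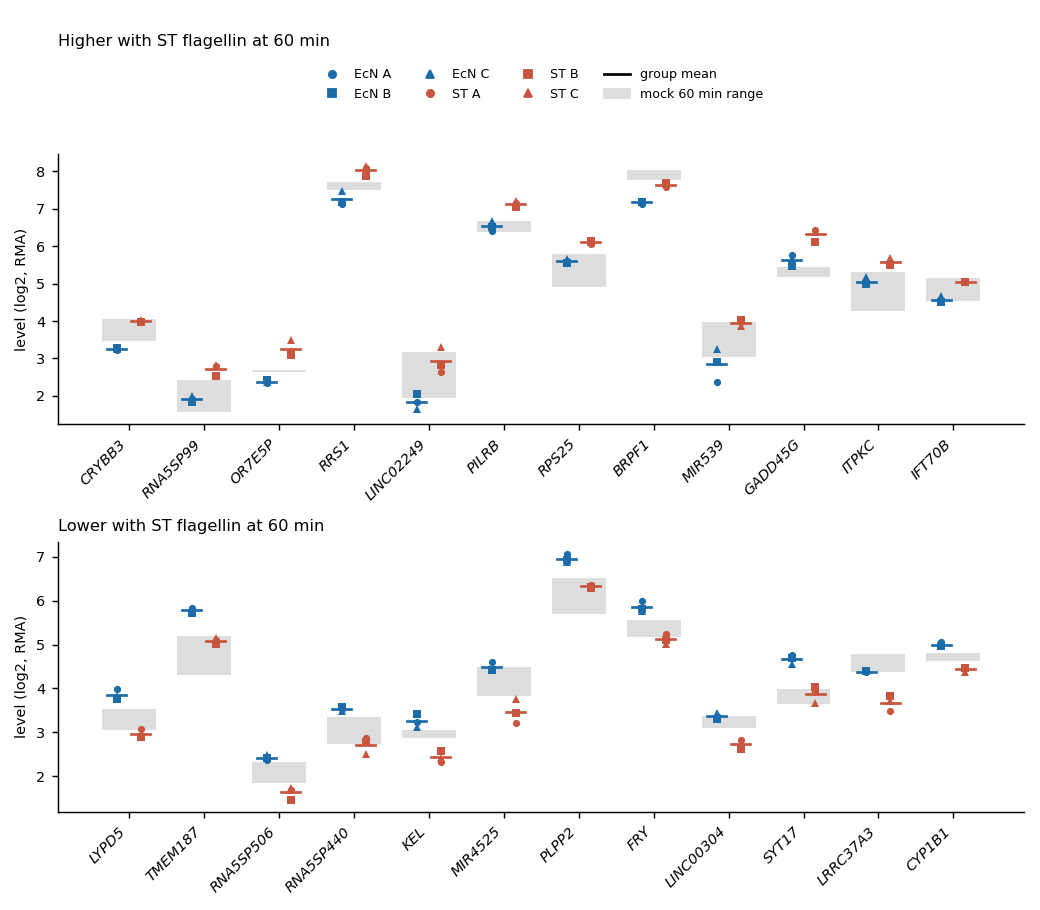
Log2 level on each array at 60 min for the 12 genes higher (top) and 12 lower (bottom) with ST that had the smallest p, ordered by p from the left. Points are single arrays (circle A, square B, triangle C), short lines are group means of 3 arrays, and grey boxes span the 3 mock arrays; in all 24 genes the flagellin groups do not overlap, and none had an adjusted p under 0.2466.

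Genes of the receptor's own pathway differed little between the flagellins. Of 19 tested members of a list of TLR5 and MyD88 signalling genes, 7 were above 0 and 12 below, with a median of -0.04 beside -0.01 over all genes. The human TLR5 gene stood at 3.91, 3.86 and 3.94 with EcN and 3.73, 3.79 and 3.96 with ST, a difference of -0.07 with a 95% confidence interval from -0.30 to 0.16. This probe set is for the human gene, and the transgene is murine. IRAK1, a kinase recruited by MyD88, stood at 8.36, 8.35 and 8.49 with EcN and 8.55, 8.63 and 8.85 with ST, and IKBKG, the regulatory subunit of the IkB kinase, differed by 0.29. These were the 2 of 19 members with ST wholly above EcN, near the 8.14% of all genes.

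NF-kB target genes split by array letter rather than by flagellin. NFKBIA, the inhibitor that retains NF-kB in the cytoplasm, stood at 8.28, 8.30 and 10.15 with EcN A, B and C and at 8.43, 8.30 and 10.85 with ST. Mock lay at 8.59 to 8.82, so the A and B arrays of both flagellins were below mock and the C arrays above it. TNFAIP3, a ubiquitin-editing enzyme that damps NF-kB signalling, stood at 6.13, 5.95 and 8.20 with EcN and 6.19, 6.25 and 9.48 with ST, beside mock at 6.52 to 6.55. CXCL8, a chemokine that draws neutrophils, stood at 2.35, 2.52 and 5.62 with EcN and 2.39, 2.84 and 7.92 with ST, beside mock at 2.16 to 2.70. For all 3 genes the groups overlapped.

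The difference was 0.29 ± 0.75 for NFKBIA, 0.54 ± 0.94 for TNFAIP3 and 0.88 ± 1.49 for CXCL8. Their 95% confidence intervals ran from -1.45 to 2.02, from -1.64 to 2.73 and from -2.58 to 4.34. This fit did not pair the arrays by letter, so its spread includes the high C arrays of both groups. It does not bound a flagellin difference in these genes closely. Without both C arrays the same differences were 0.08, 0.18 and 0.18, and without the ST C array alone, which leaves the high EcN C array in, they were -0.54, -0.54 and -0.89. In the pair of C arrays ST was above EcN for each of the 3. The letters split NFKBIA again at 120 min, at 8.09, 8.17 and 10.34 with EcN and 8.39, 8.37 and 10.64 with ST.

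Of 19 tested NF-kB subunits and inhibitors, 17 were above 0, with a median of 0.13. In 1 of the 19, TRAF1, an adaptor of TNF receptors, ST lay wholly above EcN, at 0.51. This was no larger a share than the 8.14% of all genes. Of 22 cytokines and chemokines, 13 were above 0, with a median of 0.11. Without both C arrays these medians were 0.04 and 0.01, and without the ST C array alone -0.09 and -0.13. TRAF1 differed by 0.52 without both C arrays. TNF differed by 0.59 and CXCL1 by -0.45, both with overlapping groups, and by 0.01 and -0.03 without both C arrays. Of 18 other NF-kB targets, 10 were above 0, and GADD45B, a relative of GADD45G, had the largest difference at 0.73, also with overlapping groups, and 0.59 without both C arrays. The median of that list was 0.05, and -0.02 without both C arrays.

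Of 28 immediate-early genes tested, 24 were above 0, with a median of 0.18. The median was 0.06 without both C arrays, and -0.04 without the ST C array alone. EGR1, a zinc finger factor of the early growth response, stood at 10.78, 10.51 and 11.40 with EcN and 10.33, 10.35 and 11.52 with ST. All 6 arrays were above mock, at 8.89 to 9.27, and the difference between flagellins was -0.16 ± 0.35. FOS, a subunit of the AP-1 factor, stood at 6.33, 6.30 and 7.80 with EcN and 6.54, 6.67 and 7.97 with ST, above mock at 5.14 to 5.72. Without both C arrays the differences were -0.31 for EGR1 and 0.29 for FOS.

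CCN2, a secreted matricellular protein long known as connective tissue growth factor, was the list's largest. It stood at 8.05, 8.44 and 9.16 with EcN and 9.65, 9.16 and 10.07 with ST, a difference of 1.08 ± 0.31, and 1.16 without both C arrays, while mock spanned 8.47 to 9.56. EcN C and ST B both rounded to 9.16. FOSL1, another AP-1 subunit, differed by 0.42, and by 0.27 without both C arrays. Of 15 MAP kinase feedback genes none had groups that did not overlap, beside 8.14% of all genes wholly above and 9.89% wholly below. The plot of response genes by array shows the C arrays and the EcN A array apart from their groups.

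**Figure D2:**
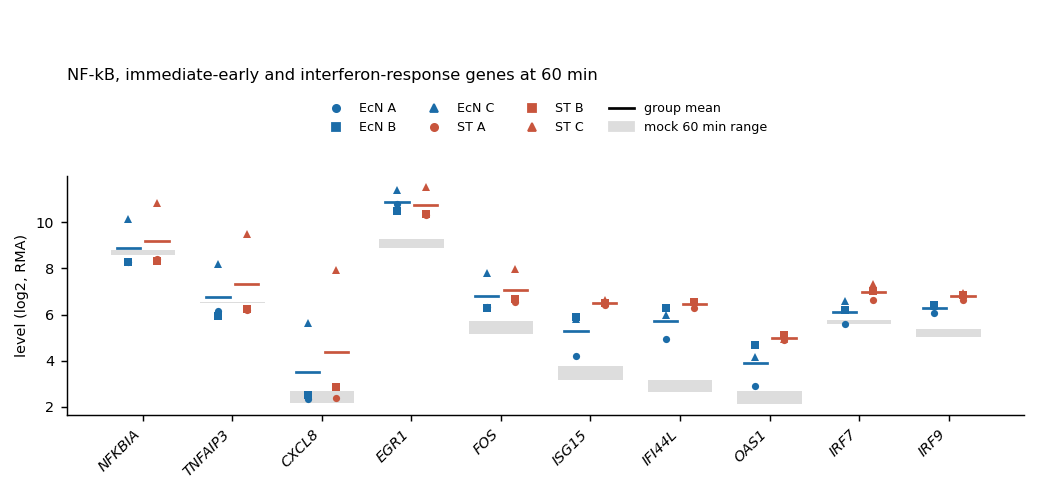
Log2 level on each array at 60 min of NF-kB targets (NFKBIA, TNFAIP3, CXCL8), immediate-early genes (EGR1, FOS) and interferon-response genes (ISG15, IFI44L, OAS1, IRF7, IRF9). Points are single arrays (circle A, square B, triangle C), short lines are means of 3 arrays, and grey boxes span the 3 mock arrays; the C arrays are high in both flagellin groups for NFKBIA, TNFAIP3 and CXCL8, and EcN A is the lowest flagellin array for ISG15, IFI44L, OAS1, IRF7 and IRF9.

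Of the interferon-stimulated genes, those named first lay above mock on all 6 arrays and were higher with ST than with EcN. ISG15, a ubiquitin-like modifier, stood at 4.22, 5.91 and 5.79 with EcN and 6.41, 6.50 and 6.62 with ST, beside mock at 3.18 to 3.79. The difference was 1.20 ± 0.40, which did not pass in limma (adjusted p = 0.357). OAS1, a sensor of double-stranded RNA that makes oligoadenylates, stood at 2.89, 4.67 and 4.14 with EcN and 4.89, 5.10 and 4.94 with ST, beside mock at 2.13 to 2.69. IFI44L, another interferon-induced gene, stood at 4.96, 6.26 and 5.98 with EcN and 6.30, 6.55 and 6.52 with ST, beside mock at 2.65 to 3.15. In all 3 genes each ST array lay above each EcN array, and EcN A was the lowest.

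Much of the size came from the EcN A array. Without it the difference was 0.66 for ISG15, 0.57 for OAS1 and 0.34 for IFI44L. Of 38 tested genes of the list, 31 were above 0 and 7 below, and 9 had ST wholly above EcN and 1 wholly below. Over all genes 47.5% were above 0, 8.14% wholly above and 9.89% wholly below. The list's median was 0.20, and 0.10 without EcN A, beside -0.01 over all genes. IFI6 differed by 0.54, DTX3L by 0.57 and OAS3 by 0.57, and without EcN A by 0.28, 0.35 and 0.06. EcN A was again the lowest for ISG15 at 120 min, at 4.53, 6.12 and 5.84 with EcN and 6.27, 7.08 and 6.53 with ST. At 120 min 29 of the 38 were above 0 as they had been at 60 min, with a median of 0.29.

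To describe this list, a sequence element was counted in its promoters. It was GAAANNGAAA, the core of the site bound by IRF factors, on either strand of the 250 bases before each gene's start, in RefSeq promoters of GRCh38.p14. Of 31 list genes with a promoter in that table, 17 (54.8%) held it, beside 277 of 12157 genes tested (2.28%) and 1061 of 35116 promoters in all (3.02%). The list is of genes known to respond to interferon, so a high share describes the list and does not bear on ST against EcN. The promoters of ISG15 and IFI44L, which hold it and whose levels are given above, are shown on the plus strand, 5′ to 3′, with matches in capitals.
ISG15, chr1:1013247-1013496: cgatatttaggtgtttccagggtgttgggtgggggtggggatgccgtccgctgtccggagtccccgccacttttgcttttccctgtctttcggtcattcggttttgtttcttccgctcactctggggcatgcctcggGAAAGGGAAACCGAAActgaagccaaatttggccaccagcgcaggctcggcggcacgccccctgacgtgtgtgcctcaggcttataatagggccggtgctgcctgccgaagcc
IFI44L, chr1:78620198-78620447: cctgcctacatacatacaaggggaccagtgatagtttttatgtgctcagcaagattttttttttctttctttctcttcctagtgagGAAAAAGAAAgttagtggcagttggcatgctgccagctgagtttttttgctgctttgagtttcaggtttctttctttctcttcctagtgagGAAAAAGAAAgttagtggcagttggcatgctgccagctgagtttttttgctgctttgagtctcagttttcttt
Each held 2 matches, which overlap in ISG15. The promoter of OAS1 held no match to these letters. Close to the gene's start it holds gaaacgaaa, in which the GAAA blocks stand a single base apart, a spacing that was not counted.

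Among the factors themselves, IRF7, which drives interferon genes, stood at 5.61, 6.18 and 6.61 with EcN and 6.64, 7.01 and 7.32 with ST. The difference was 0.86 ± 0.26, and 0.60 without EcN A, and mock spanned 5.58 to 5.77. IRF9, another factor of the same family that acts in the interferon response, stood at 6.05, 6.41 and 6.39 with EcN and 6.62, 6.83 and 6.92 with ST. The difference was 0.51 ± 0.14, and 0.39 without EcN A. All 6 were above mock, at 5.01 to 5.35, and the groups did not overlap in either gene. The list as a whole did not lean, with 11 of 20 IRF and STAT factors above 0 and a median of 0.02. RIGI, a cytoplasmic RNA sensor, differed by 0.52, and by 0.29 without EcN A. Of 9 RNA sensors and adaptors 3 had ST wholly above EcN and 1 wholly below, beside 8.14% and 9.89% of all genes. Genes of class I antigen presentation, many of which interferon also induces, had small differences, with 12 of 17 below 0 and a median of -0.04. Of the 17, 4 had ST wholly below EcN and none wholly above, beside 9.89% and 8.14% of all genes. HLA-E was at -0.36.

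Several growth and stress lists leaned towards ST by small amounts. Of 19 ribosome biogenesis genes, 18 were above 0 and 11 had ST wholly above EcN (8.14% of all genes did), with none below and a median of 0.17. Beside RRS1 these included RRP12, which works in the export and maturation of ribosomal subunits, at 8.40, 8.36 and 8.39 with EcN and 8.80, 8.80 and 9.03 with ST. Mock, at 8.60 to 8.71, lay between. GRWD1 and RRP9, other assembly factors, each differed by 0.48. Of 52 cytosolic ribosomal protein genes 31 were above 0, with a median of 0.03.

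Of 17 p53 targets, 15 were above 0 and 7 had ST wholly above EcN (8.14% of all genes did), with a median of 0.21. PHLDA3, an inhibitor of AKT signalling, differed by 0.41, BAX, a pore-forming protein of apoptosis, by 0.39, and TNFRSF10B, a death receptor for TRAIL, by 0.38. BBC3, another apoptosis gene, was at -0.27.

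All 9 tested NRF2 targets were above 0, with a median of 0.12 and 3 wholly above EcN. HMOX1, which degrades haem, stood at 8.09, 8.22 and 8.18 with EcN and 8.87, 8.52 and 9.01 with ST. Mock, at 8.26 to 8.42, lay between the groups. NQO1, a quinone reductase, differed by 0.37. Of 9 heat shock genes 5 were above 0, and DNAJA1, HSPH1, DNAJB1 and BAG3, chaperones and cochaperones, had ST wholly above EcN, at 0.47, 0.44, 0.25 and 0.24, while DNAJB4 was at -0.24 with ST wholly below. Of 20 genes of the unfolded protein response, 5 had ST wholly above EcN and 1, VLDLR, wholly below, beside 8.14% and 9.89% of all genes. Of 12 SMAD and ID feedback genes, 4 had ST wholly above EcN (8.14% of all genes did), among them ID1, a target of BMP signalling, at 0.51. At 120 min that list did not lean, with a median of 0.005 and overlapping groups in every member.

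Sterol synthesis genes leaned the other way. Of 12 tested, 8 were below 0 and 4 had ST wholly below EcN (9.89% of all genes did), with a median of -0.15. INSIG1, which holds back SREBP activation, stood at 10.46, 10.04 and 10.10 with EcN and 9.71, 9.80 and 9.75 with ST, all above mock at 9.06 to 9.17. HMGCS1, an early enzyme of the pathway, differed by -0.40, with EcN above mock and ST within its range. Cell cycle genes centred on 0, with a median of -0.01 over 26 genes, and MKI67, a marker of cycling cells, differed by -0.21 ± 0.09. ACTB and GAPDH differed by 0.06 ± 0.15 and 0.20 ± 0.11.

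**Figure D3:**
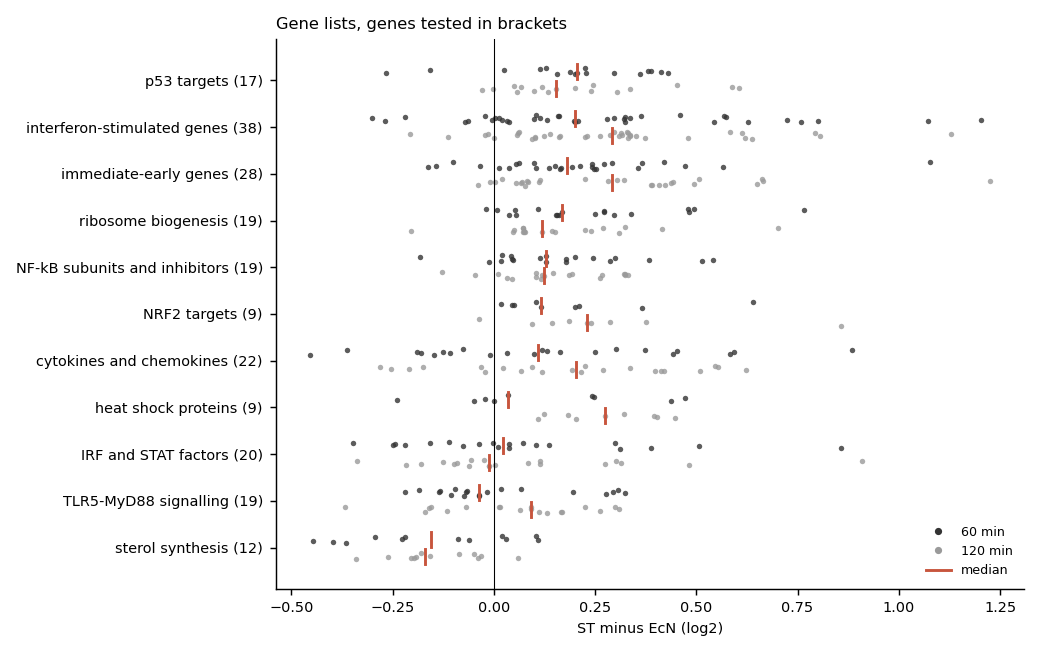
ST minus EcN (log2) for each tested gene of 11 lists at 60 min (dark) and 120 min (light), with the number of genes tested in brackets and red bars at the list medians. Lists are ordered by their 60 min median, from sterol synthesis (-0.15) to p53 targets (0.21); no gene passed at either time.

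MicroRNA precursors held the most negative difference of any gene tested, MIR378I. Of 326 precursors tested, 187 were above 0, with a median of 0.05 and a range from -1.98 to 1.13, and 20 had ST wholly above EcN and 10 wholly below, smaller shares than the 8.14% and 9.89% of all genes. The array reads RNA over the precursor and does not measure mature forms apart. Next in size in this list were MIR503, MIR539, MIR221 and MIR4525. Their mature sequences, from RefSeq on GRCh38.p14, are shown with bases 2 to 8, the seed, in capitals, since MIR221 and MIR222 share one seed and the others each have their own.
hsa-miR-221-3p: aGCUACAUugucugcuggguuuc
hsa-miR-222-3p: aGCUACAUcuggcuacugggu
hsa-miR-503-5p: uAGCAGCGggaacaguucugcag
hsa-miR-539-5p: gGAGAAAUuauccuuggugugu
hsa-miR-378i: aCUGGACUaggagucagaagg
hsa-miR-4525: gGGGGGAUgugcaugcugguu

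MIR221 stood at 4.77, 4.73 and 6.12 with EcN and 5.80, 5.71 and 7.24 with ST, beside mock at 5.02 to 6.38. Within each letter ST was above EcN, each group's C array was its highest, and the groups overlapped. The difference was 1.04 ± 0.49, 1.00 without both C arrays and 0.55 without the ST C array alone. MIR222, its neighbour with the same seed, differed by 0.58 ± 0.30, and by 0.30 without both C arrays. MIR503, whose mature form targets cell cycle genes, stood at 2.63, 2.23 and 3.60 with EcN and 3.41, 3.74 and 4.69 with ST, a difference of 1.13 ± 0.41 with overlapping groups.

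MIR539 stood at 2.38, 2.92 and 3.26 with EcN and 3.97, 4.03 and 3.87 with ST, and mock spanned 3.04 to 3.97. MIR378I stood at 5.50, 5.41 and 4.96 with EcN and 2.19, 4.29 and 3.46 with ST, a difference of -1.98 ± 0.46. Its ST arrays were spread widely, and at 120 min the difference was -0.21 ± 0.29. MIR4525 stood at 4.60, 4.42 and 4.43 with EcN and 3.21, 3.43 and 3.75 with ST, and at 120 min the sign was opposite, at 0.44 ± 0.17. The change between times had an adjusted p of 0.5861 in limma for MIR4525 and 0.8185 for MIR378I. Small nucleolar and spliceosomal RNA lists had medians between -0.04 and 0.00.

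The same contrast at 120 min used other arrays and could be set beside the 60 min values. There too no gene passed in limma, with a smallest adjusted p of 0.1903. Unadjusted, 959 genes higher with ST and 1199 lower had a p under 0.05. At 120 min 1699 genes (10.5%) had ST wholly above EcN and 1678 (10.4%) wholly below. Of the 1311 genes wholly above at 60 min, 340 were so again at 120 min, which is 25.9% of the 60 min genes and 20% of the 120 min genes, while 35 (2.67%) were wholly below. Of the 1593 wholly below at 60 min, 497 were so again, 31.2% and 29.6% of either time's genes, while 59 (3.7%) were wholly above. Across all 16111 genes the differences at the 2 times had a Pearson r of 0.369 and a Spearman rho of 0.338, and 61.9% had the same sign. Genes are not independent replicates, and the sources used here do not say whether arrays of a letter share cultures across times.

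Of the 12 genes named as higher at 60 min, 10 were higher again at 120 min and 1, IFT70B, had groups that did not overlap. Of the 12 named as lower, 10 were lower again, and in 5 of them, TMEM187, PLPP2, FRY, SYT17 and CYP1B1, the groups did not overlap. The test of the change from 60 to 120 min called no gene in limma, with a smallest adjusted p of 0.5861 and 490 genes with a more positive and 454 with a more negative difference at an unadjusted p under 0.05. H2BC13, a histone H2B gene, had ST wholly below EcN at 60 min (-0.54) and wholly above at 120 min (0.64), but its change had an adjusted p of 0.788.

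**Figure D4:**
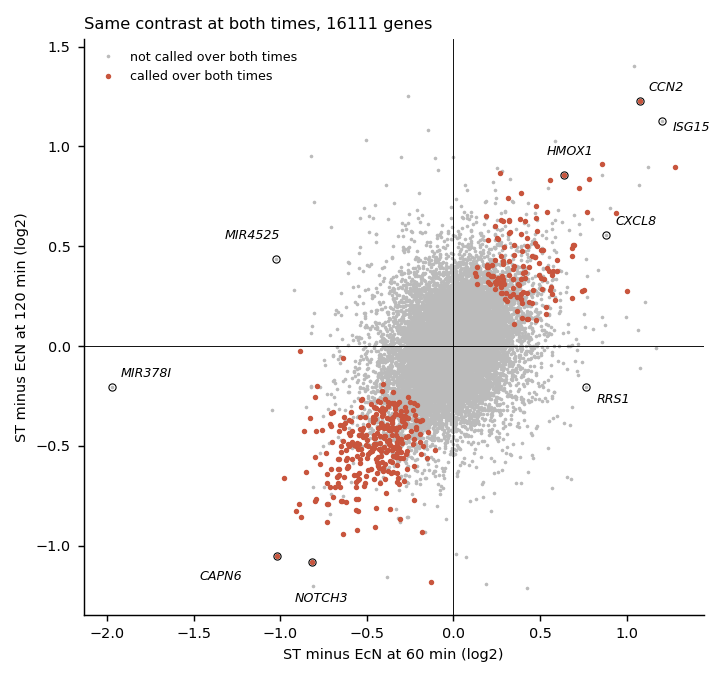
ST minus EcN (log2) at 60 min against the same at 120 min for 16111 genes, each point a gene and each axis a difference between means of 3 arrays. Red genes were called on the mean of both times (136 higher, 295 lower); CCN2 and HMOX1 lie in the upper right and CAPN6 and NOTCH3 in the lower left, while MIR4525 and RRS1 differ in sign between times.

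A test on the mean of both times, added after the 60 and 120 min results were seen, had 12 arrays and a median standard error of 0.091. It called 431 genes in limma at an adjusted p under 0.05, 136 higher with ST (0.844%) and 295 lower (1.83%). In 357 of them the groups did not overlap, in the same direction, at both times, and 80 differed by at least 1.5-fold. Over all 16111 genes, 340 had ST wholly above EcN at both times and 497 wholly below. The calls were made on these same arrays, so the separation of the called genes follows largely from how they were chosen. The fit took all 12 arrays as separate replicates. If arrays of a letter share cultures across the times, its standard errors are too small and the 2 times are not separate support. The 431 calls also depended on single arrays. Leaving out 1 array left between 85 calls (without ST 60 min C) and 392 (without EcN 120 min C). Without all 4 arrays lettered C no gene was called (smallest adjusted p 0.06235, with 1088 higher and 1343 lower genes under 0.05 before adjustment), though all 431 kept their sign. With all 18 arrays in the fit 95 were called.

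The 10 genes with the smallest p on the lower side held several proteins of basement membranes. FREM2 and FRAS1, which form a complex that anchors epithelia, had mean differences over both times of -0.66 ± 0.07 and -0.49 ± 0.07 (SE, 12 arrays). FREM2 and FRY shared the smallest adjusted p of the test, 0.004252 in limma. FREM2 stood at 8.04, 7.85 and 7.89 with EcN and 7.20, 7.41 and 7.18 with ST at 60 min. At 120 min it stood at 8.07, 8.10 and 8.04 with EcN and 7.38, 7.51 and 7.37 with ST. HSPG2, the proteoglycan perlecan, stood at 5.80, 5.65 and 5.58 with EcN and 5.09, 5.00 and 5.25 with ST at 60 min. LAMA1, a laminin chain, and HMCN1, hemicentin, had mean differences of -0.56 ± 0.07 and -0.46 ± 0.06. These are named for what they are known to do and belonged to no list.

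FRY, PLPP2, SYT17, TMEM187 and ITPR3, a calcium channel of the endoplasmic reticulum, made up the rest. In 9 of these 10 genes, all but FRAS1, the EcN arrays at 60 min lay outside the mock range and the ST arrays overlapped it. In all 10 the ST mean was nearer the mock mean. Among the 10 genes on the upper side the EcN mean was nearer mock in 5 and the ST mean in 5. Positions against mock were not counted over all genes, so no share can be set beside these counts. All of these genes were picked for differing between the flagellins.

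On the upper side HMOX1 had a mean difference of 0.75 ± 0.09 (adjusted p = 0.008412 in limma), and its groups did not overlap at either time. CCN3, a secreted relative of CCN2, stood at 6.83, 7.15 and 7.06 with EcN and 7.38, 7.40 and 7.44 with ST at 60 min, and mock at 7.09 to 7.28. DNAH17, a dynein heavy chain of cilia and flagella, had the largest mean difference of the 10, at 0.81 ± 0.12. The others were RRP12, IFT70B, SURF2, KIAA0825, ZW10, which acts at kinetochores, EIF2B4, a subunit of the exchange factor of translation initiation, and the pseudogene CHORDC1P4. Each of the 20 genes was called in 14 or 15 of 16 alternatives, and none without the C arrays, where their adjusted p in limma lay between 0.06235 and 0.1198.

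**Figure D5:**
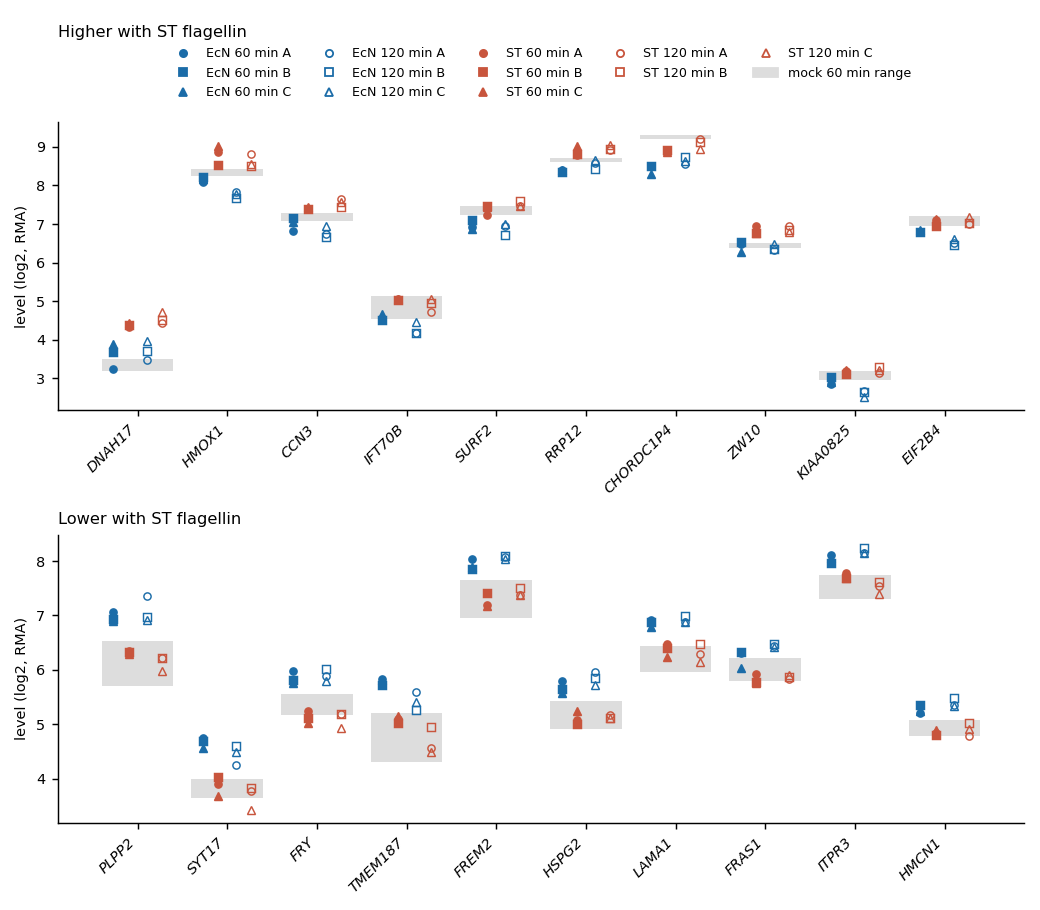
Log2 level on each flagellin array at 60 min (filled) and 120 min (open) for the 10 genes higher (top) and 10 lower (bottom) with ST that had the smallest p over both times. Circles, squares and triangles are arrays A, B and C, and grey boxes span the 3 mock arrays at 60 min; for 9 of the 10 lower genes the EcN arrays at 60 min lie above the box and the ST arrays overlap it.

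Of the immediate-early genes CCN2 was among the 431, with a mean difference of 1.15 ± 0.21, and so were IRF7 (0.88 ± 0.19) and IRF9 (0.49 ± 0.10). None of the 38 interferon-stimulated genes was called. Over all genes 0.844% were called as higher and 1.83% as lower, so a list of that size can hold none. Of the heat shock list HSPH1, DNAJA1 and DNAJB1 were called as higher, of ribosome biogenesis RRP12 and RRP9, of the p53 targets TNFRSF10B and of the TLR5 pathway IRAK1. INSIG1 and MKI67 were called as lower. Other lists held called members too, among them 4 higher and 2 lower of 421 zinc finger ZNF genes and 2 lower of 326 microRNA precursors. NOTCH3 and EGFR, receptors of signalling pathways, and CAPN6, of the calpain family, were picked after their values were seen and had mean differences of -0.95 ± 0.14, -0.51 ± 0.07 and -1.03 ± 0.16. At 60 min NOTCH3 stood at 6.28, 6.71 and 6.38 with EcN and 5.57, 5.75 and 5.59 with ST, beside mock at 5.43 to 5.74. Its relatives NOTCH1 and NOTCH2 were looked at in the same way, and at 60 min NOTCH1 was higher with ST and NOTCH2 lower.

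Of the markers of other cell types, the summed fibroblast list did not overlap between the groups and the intestinal list overlapped slightly. Of 9 fibroblast markers 4 were tested, with a summed level of 6.49 to 6.82 with EcN and 6.07 to 6.15 with ST. LUM, a collagen-binding proteoglycan, differed most of the 4, at 5.79, 6.20 and 5.87 with EcN and 5.09, 5.25 and 4.86 with ST, and it was called as lower over both times (mean -0.87 ± 0.12). Of the others COL1A1, a chain of type I collagen, differed by -0.23, THY1 by 0.17 and PDGFRB by 0.03, so that 2 of the 4 were above 0. Of 9 intestinal epithelium markers 7 were tested, at 9.42 to 9.61 with EcN and 9.59 to 9.74 with ST, led by LGR5, a receptor of R-spondins, which was called as higher over both times (mean 0.47 ± 0.09). CDX2, a factor that specifies intestine, differed by -0.16. The median of the intestinal list was 0.06 at 60 min and -0.18 at 120 min, and 2 members were above 0 at both times. The part of other cells in the results was not tested.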

How the data were processed

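The authors deposited log2 values made by RMA in oligo 1.30.0, per the submitters' processing notes. The sources used here name no array annotation version or genome build, so no coordinates of array features are given. Each labelling reaction took 100 ng of total RNA, per the labels' protocols. Values were used as deposited. The platform's annotation named the rows, with 655 symbols updated from RefSeq. Rows above their array's median on at least 3 of 18 arrays were kept, and the row with the highest mean stood for each of 399 genes with several. The 13332 rows with no symbol or several were tested apart, with 0 calls (limma, and 444 higher and 431 lower under 0.05 before adjustment).

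limma 3.58.1 in R 4.3.3 (lmFit, eBayes) fitted 2 group means to the 6 arrays, two-sided, with Benjamini-Hochberg adjustment over 16111 genes and a threshold of 0.05. The code was tested on simulated data. The members and the 35 gene lists were chosen with earlier results of these data known. Named genes were the 12 of smallest p in each direction, up to 4 members of a list by size of difference, called list members, and a fixed set of response and control genes. The test on the mean of both times and its 20 genes were added later, and other genes were named after their values were seen. Alternatives covered filters, scaling, variance settings, the arrays in the fit, the replicate block and leaving out arrays, and those of list medians without both arrays of a letter were added after the results were seen.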

Additional observations from a re-analysis of the deposited data

How the results depend on the processing

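The count at 60 min was 0 under all 21 alternatives run in limma (smallest adjusted p from 0.06242, with 12 arrays and the replicate block, to 0.6368, without both B arrays), and the 120 min and change counts were 0 under theirs. Centring the arrays moved the unadjusted split at 60 min from 795 higher and 1051 lower to 966 and 889. The count on the mean of both times was 431, 0 without the 4 C arrays, 95 with all 18 arrays, and 85 to 392 without 1 array. Same-lettered arrays at 60 min had correlated deviations of 0.05 (A), 0.09 (B) and 0.14 (C), not all above 0.1, so the letters were not taken as pairs, although each of the 6 arrays correlated best with its own letter at 60 min and 5 of 6 at 120 min. The replicate block gave 0 calls at 60 min (824 higher and 1141 lower under 0.05 before adjustment) and 613 on the mean.

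Leaving out 1 array turned the sign of some uncalled differences, which ranged from -0.541 to 0.906 for NFKBIA, -0.543 to 1.262 for TNFAIP3, -0.887 to 1.945 for CXCL8, -0.203 to 0.747 for FOS, -0.556 to 0.089 for EGR1, -0.316 to 1.098 for TNF, -0.967 to 0.361 for CXCL1 and -0.053 to 0.227 for ACTB. ACTB was also at -0.035 and -0.018 without both B or both C arrays. The cause was not tested. Of 1126 alternatives of 54 named genes, 16 reversed the sign. Of 350 alternatives of list medians, 51 moved by more than the spread between arrays. With 3 arrays a group, small differences were not resolved.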
